A study of Mus musculus with 15 samples.

Results

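The proteasome genes of neural stem cells were followed over the first day of differentiation. They were chosen by name: every gene whose symbol in the array's annotation begins with Psma, Psmb, Psmc, Psmd, Psme or Psmf followed by a number. This gave 44 of the 12393 genes that had a probe set with 1 symbol, on 80 probe sets. Where a gene had several, the brightest over the 15 arrays was used. Of these 44 genes 14 encode constitutive subunits of the core particle, 17 encode subunits of the regulatory particle, 4 are inducible or tissue-specific core subunits (Psma8, Psmb8, Psmb9 and Psmb10), 3 are assembly chaperones (Psmd5, Psmd9 and Psmd10) and 4 are activators or an inhibitor (Psme1, Psme3, Psme4 and Psmf1). The other 2 genes, Psmc3ip and Psme3ip1, encode proteins named as partners of a proteasome protein and are no subunits. The cells were neural stem cells of the subventricular zone of adult female C57Bl6/J mice aged 6 months, grown as neurospheres. The 5 undifferentiated samples had bFGF and EGF, growth factors that keep them dividing, and 5 samples each were taken 12 h and 24 h after these factors were withdrawn and 5% serum and a poly-D-lysine coating were supplied. Loss of growth factors, serum and coating came together, and their effects cannot be told apart. Whether replicates are separate cultures is not stated in the labels, so p-values here measure a spread between samples that may be only technical.

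The proteasome is the large protease that degrades proteins tagged with ubiquitin. Its barrel-shaped core particle has outer rings of alpha subunits, which form the gate, and inner rings of beta subunits, of which Psmb5, Psmb6 and Psmb7 carry the cutting sites. The regulatory particle caps the barrel. Its base, with a ring of ATPases (the Psmc genes), unfolds the substrate and feeds it in. A lid of non-ATPase subunits (some of the Psmd genes) removes the ubiquitin. Cells exposed to interferon can replace the catalytic subunits by Psmb8, Psmb9 and Psmb10, which gives the immunoproteasome, and the transcription factor Nrf1 (gene Nfe2l1) raises subunit genes when proteasome activity is short. In neural stem cells the proteasome clears cell-cycle and fate regulators as well as damaged proteins.

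Values are deposited log10 signals turned into log2, and the levels of different probe sets cannot be set against each other. In 13 of 15 samples the title and the array file name carry different codes, and 8 samples would change group. The titles were followed here, and under the file codes limma called 0 of the proteasome genes, with 0 at an unadjusted p under 0.05, and 0 genes overall. The title codes end in 3 suffixes, called A, B and C here. A held 2, 2 and 1 of the undifferentiated, 12 h and 24 h samples, B 2 of each and C 1, 1 and 2. The codes form 6 runs of consecutive numbers, 4 of which hold all 3 groups. Nothing says that suffixes or runs are batches. The log2 ratio of the 3' over the 5' probe set of beta-actin, a sign of RNA integrity and labelling, moved with the groups: it was 0.957 ± 0.179 (SD, n = 5) in undifferentiated cells, 1.24 ± 0.089 at 12 h and 1.47 ± 0.197 at 24 h. Its part in the differences below was not tested apart from a fit with the ratio as a covariate. The 12 h replicates 3 and 4 were the closest pair of arrays, with an SD of 0.15 between them over genes against 0.277 for the next pair, and no label says that they share RNA. Of the stem cell markers 11 of 11 were above the expression filter (nestin, Nes, at 6.34 ± 0.28 in undifferentiated cells), and of the microglia markers 0 of 12 were.

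Few proteasome genes changed in the first day. Of the 44 genes 41 passed the filter, a mean above 0.512 on the log2 scale, and were tested. At 12 h limma called 0 of them higher and 2 lower (Psmd9 and Psmc3ip), where it called 3.30% of all 7909 genes tested higher and 4.56% lower. At 24 h it called 2 higher (Psmb3 and Psme3ip1) and 7 lower (Psmc5, Psmd7, Psmd12, Psmd13, Psmd9, Psme3 and Psmc3ip), against 12.7% of all genes higher and 19.4% lower. Between 12 h and 24 h it called 0 of the 41 in either direction, and 0.0632% of all genes higher and 0.354% lower. At an unadjusted limma p under 0.05 the counts were 0 higher and 5 lower at 12 h, 2 higher and 11 lower at 24 h, and 1 each way between the times (Psme3ip1 higher and Psmb10 lower). For such unadjusted counts, here and below, the share over all genes was not worked out. They therefore have no background to be set against, and the percentages above use the adjusted threshold. A gene was called at a Benjamini-Hochberg adjusted p under 0.05 over all 7909 genes.

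The groups did not overlap for 0 genes higher and 3 genes lower at 12 h (Psmc6, Psmd9 and Psmc3ip), and for 1 gene higher (Psme3ip1) and the 7 called lower at 24 h. Over all genes tested this held for 3.41% higher and 4.74% lower at 12 h, and for 9.04% higher and 16.0% lower at 24 h. The genes called lower were 4.88% of the 41 at 12 h and 17.1% at 24 h, and those not overlapping on the lower side 7.32% and 17.1%, so no count stood far above its background. With the arrays centred on their medians the median of all genes at 24 h moved from -0.06 to 0.09, the calls over all genes became 18.1% higher and 14.0% lower, and 1 proteasome gene was called higher and 2 lower. With quantile normalisation they were 20.0% and 16.6%, with 2 proteasome genes higher and 9 lower. When the beta-actin ratio entered the fit, limma called 0 of the 41 at either time, and an unadjusted p under 0.05 gave 1 higher and 4 lower at each. Few genes of any kind were called in that fit. They were 0.518% of all genes higher and 0.228% lower at 12 h, and 0.101% and 0.0632% at 24 h. The count of 7 fell to 4 without undifferentiated replicate 4 or without replicate 5.

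The intervals were narrow enough to bound most changes. The 95% interval of the difference lay within 2-fold in either direction for 39 of 41 genes at 12 h (not for Psmb7 and Psmc3ip) and for 38 of 41 at 24 h (not for Psmb7, Psmc3ip and Psme3). It lay within 1.5-fold for 30 genes at 12 h and 22 at 24 h. The absolute difference at 24 h had a median of 0.13 on the log2 scale over the 14 core genes and 0.23 over the 17 regulatory particle genes, against 0.32 over all genes tested. Over the 2178 genes whose mean level lay in the range of these subunits, 4.50 to 7.80, it was 0.31.

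**Figure D1:**
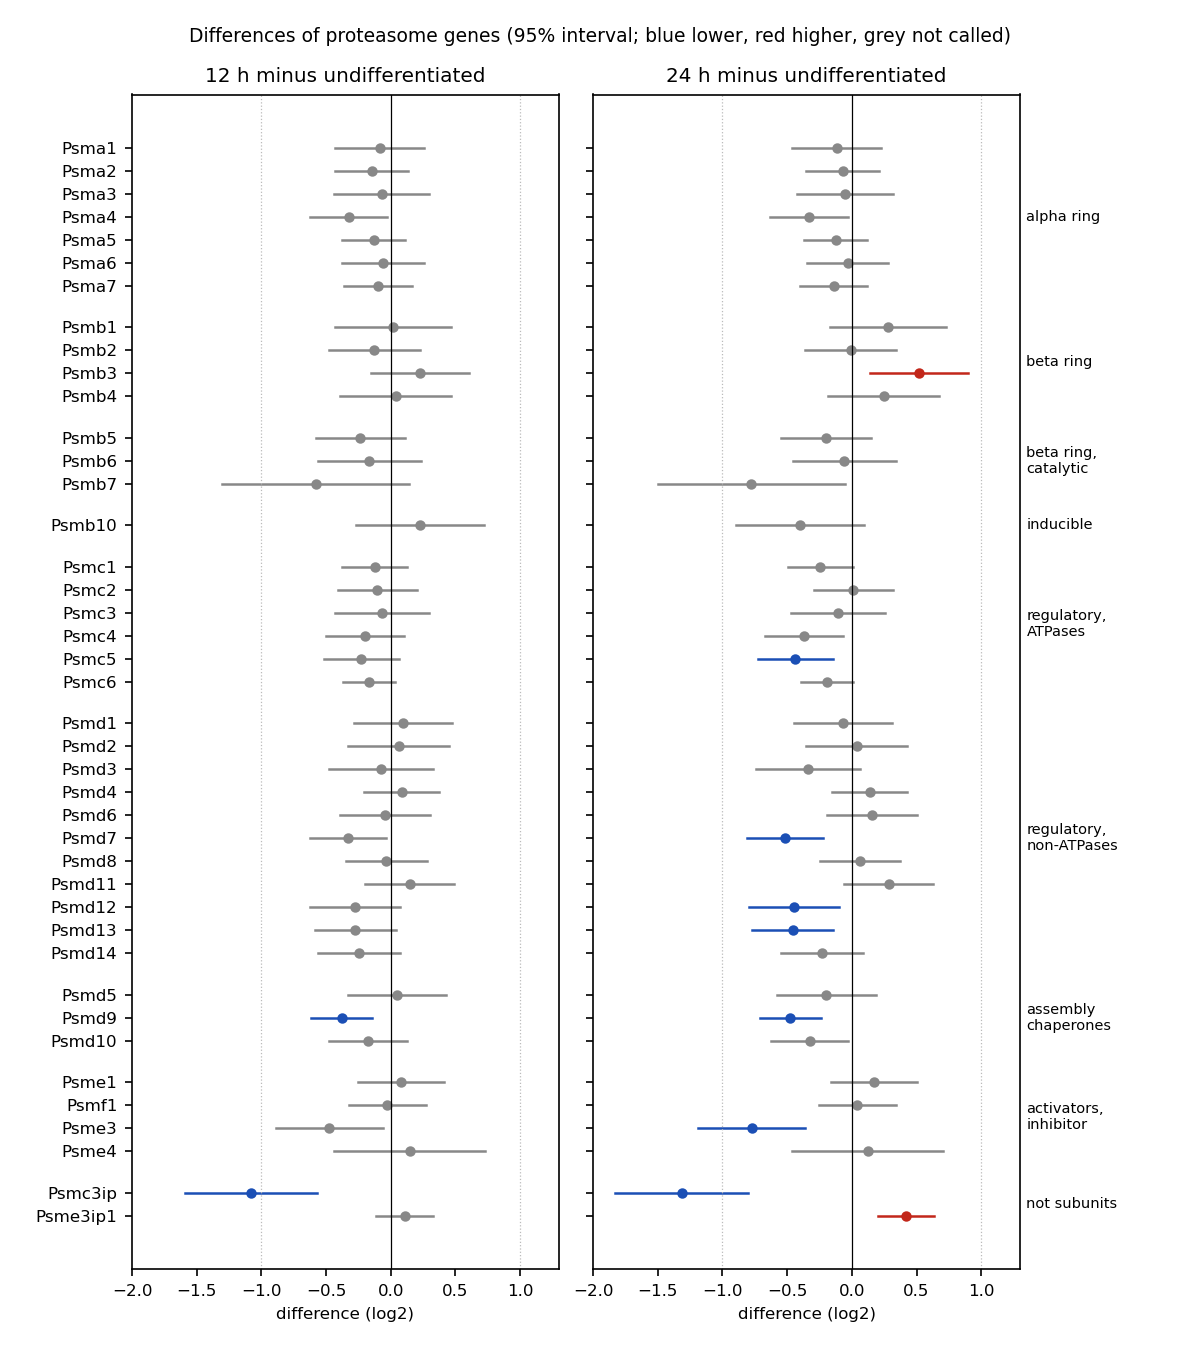
Difference in log2 level of each of the 41 proteasome genes tested at 12 h (left) and 24 h (right) from undifferentiated cells, by class; points are estimates and lines 95% intervals, blue for genes called lower, red for called higher and grey for not called, with dotted lines at 2-fold. The genes called lower at 24 h lie between -1.32 and -0.44, and an interval that leaves out 0 can be grey because calls use adjusted p-values.

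The core particle genes as a group stayed close to their undifferentiated level. Of the 14 core genes 0 were called at 12 h, and at 24 h 1 was called higher and 0 lower, where an unadjusted limma p under 0.05 gave 1 lower at 12 h (Psma4), and 1 higher and 2 lower at 24 h (Psma4 and Psmb7). The median difference was -0.11 at 12 h and -0.06 at 24 h, where the median of all genes was 0.004 and -0.06. At both times 3 core genes had a difference above 0 and 11 below. The 24 h median depended on the setting. It was 0.08 with the arrays centred and 0.01 without 24 h replicate 3, but -0.16 with quantile normalisation, -0.15 with the runs as a fixed block, -0.19 without the arrays of suffix C and -0.28 with the actin ratio in the fit. Under quantile normalisation the regulatory particle was at -0.14, so the core lay as low.

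The 7 alpha ring genes, Psma1 to Psma7, had differences between -0.33 and -0.06 at 12 h and between -0.33 and -0.03 at 24 h, and none was called. With quantile normalisation Psma3 and Psma4 were called lower at 24 h. The member with the largest difference was Psma4. It lay at 7.01, 6.64, 6.66, 6.56 and 6.94 in undifferentiated cells, at 6.15, 6.58, 6.51, 6.55 and 6.38 at 12 h and at 6.45, 6.23, 6.15, 6.63 and 6.71 at 24 h. The groups overlapped at both times, and the 24 h difference was -0.33 ± 0.14 (SE; limma adjusted p = 0.0886). Psma4 was called lower at 24 h with quantile normalisation (-0.38, limma adjusted p = 0.0182), with the suffix as a block (-0.36, adjusted p = 0.0375) and with the runs as a random block (-0.34, adjusted p = 0.0449), not with the runs as a fixed block (-0.38, adjusted p = 0.0662). It was below 0 in 4 of the 4 runs of array codes that hold all groups.

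Among the beta subunits without a cutting site, Psmb3, a structural subunit of the inner ring, was called higher at 24 h. Its level was 6.88, 6.37, 6.32, 6.20 and 6.55 in undifferentiated cells, 6.35, 6.86, 6.56, 6.72 and 6.98 at 12 h, and 6.69, 6.86, 6.73, 7.50 and 7.15 at 24 h. Undifferentiated replicate 1 reached into the 24 h range, and 24 h replicate 4 was the highest array. The difference was 0.52 ± 0.18 (SE; limma adjusted p = 0.0365) at 24 h, or 1.43 times the undifferentiated level, and 0.23 at 12 h (adjusted p = 0.445). The other probe set of Psmb3, at nearly the same level, differed by 0.10 at 24 h (adjusted p = 0.76 in a fit on probe sets). The call ended with the mean of both probe sets (0.31, adjusted p = 0.237), with the runs as a fixed block (0.40, adjusted p = 0.0732), with median centring (adjusted p = 0.0551), without the arrays of suffix C (0.31, adjusted p = 0.239), with the actin ratio as a covariate (0.17, adjusted p = 0.766), and without any of undifferentiated replicates 2, 3, 4 and 5 or 24 h replicates 4 and 5 (adjusted p up to 0.0984). The structural subunits Psmb1, Psmb2 and Psmb4 differed by 0.28, -0.01 and 0.25 at 24 h, and their groups overlapped.

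None of the 3 constitutive catalytic subunits was called. Psmb5, which cuts after large hydrophobic residues, lay at 7.02, 6.97, 6.65, 6.81 and 7.11 in undifferentiated cells, 6.33, 6.76, 6.73, 6.75 and 6.82 at 12 h, and 6.52, 6.45, 6.43, 7.13 and 7.04 at 24 h. The 24 h arrays split into 3 low and 2 high values, the latter in the range of undifferentiated cells. Its difference was -0.23 at 12 h and -0.20 ± 0.16 at 24 h (SE; limma adjusted p = 0.371).

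Psmb6, which cuts after acidic residues, lay at 7.40, 7.05, 6.78, 6.96 and 7.32 in undifferentiated cells, 6.65, 7.01, 6.92, 6.94 and 7.16 at 12 h, and 6.78, 6.80, 6.66, 7.55 and 7.43 at 24 h. The same 24 h arrays, replicates 4 and 5, were the high ones, and the difference at 24 h was -0.06 ± 0.19. Psmb7, which cuts after basic residues, lay at 6.21, 5.01, 4.22, 4.84 and 4.47, then 3.99, 4.53, 4.30, 4.70 and 4.32, then 4.05, 4.67, 4.35, 4.73 and 3.06. It had the widest spread of the tested core and regulatory particle genes, an SD within groups of 0.61, set by undifferentiated replicate 1 at the high end and 24 h replicate 5 at the low end. Its 24 h difference of -0.78 ± 0.34 had an interval from -1.50 to -0.05 and was not called (limma adjusted p = 0.0941).

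The immunoproteasome subunits Psmb8 and Psmb9 had a mean below the expression filter in every group. Psmb8 lay at 0.30, 0.10, 0.28, 0.05 and 0.36 in undifferentiated cells, 0.42, -0.18, 0.02, -0.06 and 0.13 at 12 h, and -0.18, -0.29, -0.10, 0.11 and -0.17 at 24 h. Psmb9 lay at 0.73, 0.38, 0.40, 0.24 and 0.33, then 1.10, 0.27, 0.23, 0.17 and 0.42, then 0.12, 0.02, 0.26, 0.33 and 0.08. All 15 values of Psmb8 and 13 of 15 of Psmb9 were below the filter, so neither was tested, and in a fit without a filter Psmb8 differed by -0.34 ± 0.10 at 24 h (limma adjusted p = 0.0266), at a level below the filter in every group. Psma8, the alpha subunit of the testis, was below the filter in all arrays, and Psmb11 and Psme2 were not analysed here, the latter because its probe set is shared with Psme2b.

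Psmb10 was the inducible catalytic subunit above the filter. It lay at 3.62, 2.81, 2.82, 2.82 and 3.21 in undifferentiated cells, 2.37, 3.45, 3.63, 3.70 and 3.25 at 12 h, and 2.57, 2.61, 2.81, 2.92 and 2.37 at 24 h. At 12 h 4 arrays were above every 24 h array and replicate 1 was as low as the lowest of them. The difference was 0.22 at 12 h and -0.40 ± 0.23 at 24 h (SE; limma adjusted p = 0.202), and -0.63 between 24 h and 12 h (adjusted p = 0.209). Without 12 h replicate 1 the gap between 24 h and 12 h was -0.85 and passed the test (adjusted p = 0.0455).

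**Figure D2:**
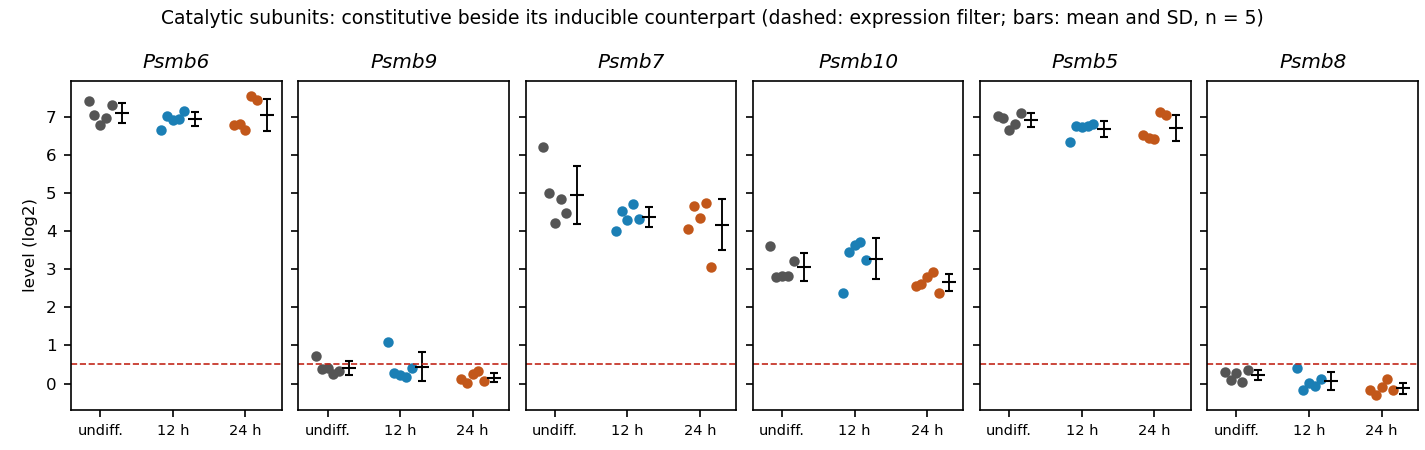
Log2 level of each constitutive catalytic subunit beside its inducible counterpart (Psmb6 and Psmb9, Psmb7 and Psmb10, Psmb5 and Psmb8) in the 5 arrays of each group, with mean and SD to the right of the points and the expression filter as a dashed line; levels of different probe sets are not comparable. Psmb8 lies below the filter in every array, Psmb9 in all but 2 arrays, and the other 4 genes above it.

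The regulatory particle held 4 of the 7 genes called lower at 24 h, which is 23.5% of its 17 genes and close to the 19.4% of all genes. The ATPase Psmc5 and the lid subunits Psmd7, Psmd12 and Psmd13 fell, and 0 of the 17 genes were called at 12 h and 0 higher at 24 h. At an unadjusted limma p under 0.05 there was 1 lower at 12 h (Psmd7), and 0 higher and 5 lower at 24 h, Psmc4 being the other. Psmd7 is the inactive partner of the lid's deubiquitinase Psmd14, and Psmd12 and Psmd13 are scaffold subunits of the lid. The median difference of the 17 genes was -0.10 at 12 h and -0.19 at 24 h, with 13 genes below 0 at 12 h and 11 at 24 h. All 6 ATPase genes had a difference below 0 at 12 h and 5 of 6 at 24 h. The other was Psmc2, at 0.01 on the probe set used and -0.17 on its other probe set.

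Psmd7 showed the largest fall of the subunits called lower. Its level was 4.71, 4.74, 4.63, 4.88 and 5.01 in undifferentiated cells, 4.12, 4.46, 4.68, 4.68 and 4.39 at 12 h, and 4.42, 4.29, 4.32, 3.90 and 4.44 at 24 h. Every 24 h array was below every undifferentiated array, and the 12 h arrays ran from the level of 24 h to that of undifferentiated cells. It fell by 0.52 ± 0.14 on the log2 scale at 24 h (limma adjusted p = 0.0101), to 0.698 of the undifferentiated level. The 12 h difference was -0.33 (adjusted p = 0.143). A dimmer probe set of Psmd7, at a mean of 1.17, differed by 0.32 the other way (adjusted p = 0.138 on probe sets), and the mean of all its probe sets gave -0.09 (adjusted p = 0.453).

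Psmd13 lay at 5.17, 5.14, 5.24, 5.26 and 5.38 in undifferentiated cells, 4.44, 4.85, 5.29, 5.18 and 5.04 at 12 h, and 4.70, 4.62, 4.73, 4.77 and 5.08 at 24 h. The 24 h arrays were all below the undifferentiated ones, with replicate 5 close to them. It fell by 0.46 on the log2 scale (SE 0.15; limma adjusted p = 0.0267), and the other probe set of the gene differed by -0.37 (adjusted p = 0.0264 on probe sets). The call was lost without undifferentiated replicate 4 or 5 or 24 h replicate 1, 2 or 3 (adjusted p up to 0.0609).

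Psmd12 lay at 5.62, 5.66, 5.72, 5.80 and 6.00 in undifferentiated cells, 4.92, 5.46, 5.75, 5.86 and 5.42 at 12 h, and 5.21, 5.44, 5.23, 5.06 and 5.62 at 24 h. The highest 24 h array and the lowest undifferentiated array were equal to within rounding, so the groups only just kept apart. The difference was -0.45 ± 0.16 (SE; limma adjusted p = 0.0473). It was above the threshold without any of the 5 undifferentiated replicates, 12 h replicates 2 and 5, or 24 h replicates 1, 2, 3 and 4, which is 11 of the 15 arrays (adjusted p up to 0.111). The call of Psmd12 was also lost with quantile normalisation, trimmed mean scaling, no filter, no variance trend or the mean of all probe sets.

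Psmc5, an ATPase of the base, lay at 6.13, 6.21, 6.08, 6.35 and 6.34 in undifferentiated cells, 5.48, 6.03, 6.26, 6.19 and 6.00 at 12 h, and 5.82, 5.78, 5.71, 5.68 and 5.93 at 24 h. The 24 h arrays were tightly grouped below all undifferentiated arrays, while 12 h replicate 1 was the lowest array of all. The difference was -0.44 ± 0.14 (SE; limma adjusted p = 0.0224), and the call was lost without undifferentiated replicate 4 or 5 or 24 h replicate 4 (adjusted p up to 0.056).

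Within the 4 runs of array codes that hold all groups, the 24 h differences of the 4 genes lay between -0.64 and -0.28. Their sign was fixed in advance, since the groups of each gene did not overlap at 24 h. The 4 genes were called with the suffix and with the runs as a block. The ATPases Psmc1 and Psmc4 were called lower there as well, and Psmd3 joined them with the runs as a fixed block. In these fits more of all genes were called lower too, 23.7% with the suffix and 23.6% with the runs as a fixed block. With the runs as a random block it was 25%. All 4 calls ended with the arrays centred on their medians (differences -0.29 to -0.37, adjusted p 0.0875 to 0.257), without the arrays of suffix C (adjusted p 0.0751 to 0.179) and with the actin ratio as a covariate (differences -0.46 to -0.73, adjusted p 0.112 to 0.259). Psmc6, an ATPase whose arrays had the smallest spread of these genes (SD within groups 0.086), was below every undifferentiated array at 12 h and differed by -0.17 ± 0.10 then (limma adjusted p = 0.28). The other probe sets of Psmc6 differed by -0.09 and 0.01 at 12 h. Of the lid and base subunits with positive values, Psmd11 differed by 0.28 ± 0.16 at 24 h on the probe set used and by -0.33, -0.50 and -0.16 on its 3 others above the filter, with no call, so that no direction can be given for this gene.

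**Figure D3:**
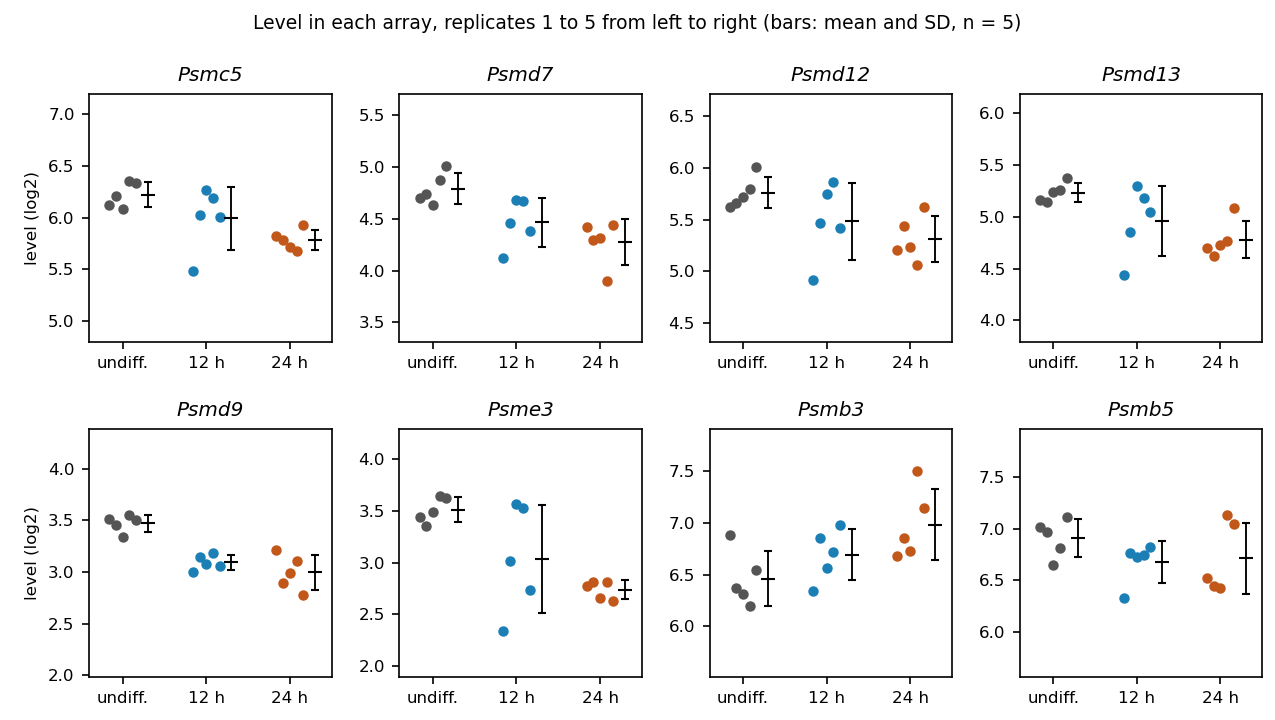
Log2 level in each array of the genes called at 24 h, other than Psmc3ip and Psme3ip1, with the uncalled catalytic subunit Psmb5 for comparison; points are replicates 1 to 5 from left to right, bars the mean and SD of 5 arrays, and the axes span equal ranges around each gene's mean. Psmc5, Psmd7, Psmd12, Psmd13, Psmd9 and Psme3 are lower in every 24 h array than in every undifferentiated array, whereas Psmb3 and Psmb5 overlap.

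Promoters are shown for the genes called at 24 h, since several of them fell together, other than Psmc3ip and Psme3ip1, which are no subunits. The sequences are RefSeq windows of GRCm38.p6 from 250 bases before to 50 bases after the annotated start, found by symbol for 37 of the 44 genes, and for Psmd7, among others, there was no entry. All 6 are read from the plus strand, which is the strand of each gene. Capitals mark the matches, on either strand, to a loose antioxidant response element (TGANNNNGC), which factors of the Nrf family bind, to the ETS motif CCGGAAG, to the motif GGGCGG known as the GC box, and to the letters CCAAT.
Psmc5, chr11:106255935-106256234: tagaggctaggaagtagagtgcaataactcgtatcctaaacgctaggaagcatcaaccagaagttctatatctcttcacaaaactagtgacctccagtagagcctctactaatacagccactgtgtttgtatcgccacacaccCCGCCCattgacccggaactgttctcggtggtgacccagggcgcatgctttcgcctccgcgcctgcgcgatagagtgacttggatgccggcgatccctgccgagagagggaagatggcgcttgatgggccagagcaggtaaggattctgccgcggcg
Psmd12, chr11:107479278-107479577: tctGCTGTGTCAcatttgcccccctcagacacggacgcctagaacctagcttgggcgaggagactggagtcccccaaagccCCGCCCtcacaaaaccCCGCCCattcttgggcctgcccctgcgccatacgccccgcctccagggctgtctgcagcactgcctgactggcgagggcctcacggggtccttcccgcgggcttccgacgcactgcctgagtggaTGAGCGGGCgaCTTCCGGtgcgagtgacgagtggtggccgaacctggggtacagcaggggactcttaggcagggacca
Psmd13, chr7:140882144-140882443: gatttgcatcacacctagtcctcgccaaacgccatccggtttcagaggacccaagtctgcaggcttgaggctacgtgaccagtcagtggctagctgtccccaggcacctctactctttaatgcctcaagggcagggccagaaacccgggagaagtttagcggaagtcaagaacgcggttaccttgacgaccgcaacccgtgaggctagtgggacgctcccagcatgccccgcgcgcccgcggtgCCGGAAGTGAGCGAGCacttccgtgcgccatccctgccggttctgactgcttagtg
Psmd9, chr5:123227940-123228239: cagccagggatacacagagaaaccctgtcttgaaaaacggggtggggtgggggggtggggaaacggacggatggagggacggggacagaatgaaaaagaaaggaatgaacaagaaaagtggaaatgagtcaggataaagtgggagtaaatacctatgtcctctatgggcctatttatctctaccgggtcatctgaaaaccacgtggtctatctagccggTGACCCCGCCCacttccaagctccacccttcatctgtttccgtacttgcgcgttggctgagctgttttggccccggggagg
Psme3, chr11:101315963-101316262: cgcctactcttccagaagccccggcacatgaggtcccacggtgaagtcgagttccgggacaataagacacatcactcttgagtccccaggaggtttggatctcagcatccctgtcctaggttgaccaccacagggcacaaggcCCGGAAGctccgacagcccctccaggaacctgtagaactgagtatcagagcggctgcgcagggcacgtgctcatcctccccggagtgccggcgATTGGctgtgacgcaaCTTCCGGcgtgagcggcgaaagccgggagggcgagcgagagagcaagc
Psmb3, chr11:97703184-97703483: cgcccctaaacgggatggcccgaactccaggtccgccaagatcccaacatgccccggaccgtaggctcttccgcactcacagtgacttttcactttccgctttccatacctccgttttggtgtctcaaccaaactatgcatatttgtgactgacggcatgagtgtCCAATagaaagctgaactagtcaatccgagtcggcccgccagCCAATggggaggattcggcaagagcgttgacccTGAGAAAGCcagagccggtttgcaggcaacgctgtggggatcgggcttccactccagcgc

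Of the 10 motifs searched, none was in all 6 windows of genes called lower at 24 h, that of Psmc3ip included. The loose element was in 4 of the 6 (Psmd12, Psmd13, Psmd9 and Psmc3ip, not Psmc5 or Psme3) and in both windows of genes called higher (Psmb3 and Psme3ip1). In Psmd13 the loose element directly follows an ETS match at the start site, and in Psmd9 it overlaps a GC box. Over the 37 genes with a window, 21 (56.8%) held the loose element, against 41.3% of all 32851 windows and 48.1% of the 6490 tested genes with a window. A gene was counted if any of its windows held the match, so shares of genes and of windows have different units. The full element TGACTCAGC contains the AP-1 motif TGACTCA and also fits the loose form. It was in 0 of the 37, in 0.454% of all windows and in 0.539% of tested genes. The AP-1 motif was in Psmd9 alone of the 37 (5.20% of all windows and 4.30% of tested genes).

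The ETS motif was in 14 of the 37 genes (37.8%), against 8.86% of all windows and 22.1% of tested genes. It was in 9 of 14 regulatory particle genes and 1 of 11 core genes with a window. The GC box was in 22 (59.5%), above the 35.7% of all windows but below the 72.5% of tested genes. The CCAAT box was in 15 (40.5%, against 37.4% of all windows and 44.1% of tested genes). The E-box CACGTG was in 5 (13.5%, against 7.15% and 12.3%). The cyclic AMP element TGACGTCA was in 0 (1.79% of all windows and 3.81% of tested genes). The motifs of nuclear respiratory factor 1 and of BANP/ZBTB33 were in 1 gene each (0.971% and 0.466% of all windows, 2.51% and 1.28% of tested genes). A match is a run of letters, not a bound site, and the order of the genes' differences was not tested against it.

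The assembly chaperone Psmd9, which helps to build the ATPase ring, was lower at both times. It lay at 3.51, 3.45, 3.34, 3.55 and 3.50 in undifferentiated cells, 3.00, 3.14, 3.08, 3.19 and 3.06 at 12 h, and 3.21, 2.90, 2.99, 3.10 and 2.78 at 24 h. No array at 12 h or 24 h reached the lowest undifferentiated array. It fell by 0.38 ± 0.11 on the log2 scale at 12 h (limma adjusted p = 0.0489) and by 0.48 at 24 h (adjusted p = 0.00504). The 12 h call was at the threshold. It was lost without any of 12 arrays, that is all but 12 h replicate 4 and 24 h replicates 1 and 5 (limma adjusted p up to 0.109). The 24 h call was kept without any 1 array (limma adjusted p up to 0.0147). With median centring and with the actin ratio as a covariate the 24 h call was lost. The other 2 chaperones with a Psmd name, Psmd5 and Psmd10, differed by -0.20 and -0.32 at 24 h and were not called (adjusted p = 0.425 and 0.0895), Psmd10 other than with the runs as a random block.

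Of 7 other assembly factors and further subunits, from a list of genes named for their role, 0 were called at 12 h, and 0 higher and 2 lower (28.6%) at 24 h, against 19.4% of all genes called lower. Psmg1 and Psmg4, chaperones that help to form the alpha ring, were the 2 called. Psmg1 lay between 4.43 and 4.70 in undifferentiated cells and between 3.75 and 4.23 at 24 h, a difference of -0.61 ± 0.16 (limma adjusted p = 0.00876). Psmg4 lay between 3.34 and 3.94 and then between 2.38 and 2.99, a difference of -0.80 ± 0.20 (adjusted p = 0.007). Their groups did not overlap at 24 h, and at 12 h replicates 3 and 4 stood at the undifferentiated level while replicates 1 and 5 stood at that of 24 h. Psmg2, the partner of Psmg1, differed by -0.39 and missed the threshold (adjusted p = 0.0526), and Pomp, which completes the core particle, differed by -0.16 at 12 h and -0.05 at 24 h (adjusted p = 0.843).

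Among activators and the inhibitor, Psme3 fell at 24 h and the others were not called. Psme3 encodes the nuclear activator PA28 gamma, which opens the core without ubiquitin. It lay at 3.44, 3.36, 3.50, 3.65 and 3.63 in undifferentiated cells, 2.34, 3.02, 3.57, 3.53 and 2.74 at 12 h, and 2.78, 2.81, 2.66, 2.82 and 2.63 at 24 h. The 24 h arrays were close together and low, and the 12 h arrays were spread over the whole range, with replicates 3 and 4 at the undifferentiated level. It fell by 0.77 on the log2 scale at 24 h (limma adjusted p = 0.0073), to 0.585 of the undifferentiated level, and its other probe set above the filter differed by -0.51 (adjusted p = 0.0401 on probe sets). The call was kept without any 1 array (limma adjusted p up to 0.02). It was lost without the arrays of suffix C and with the actin ratio as a covariate. At 12 h the difference of Psme3 was -0.48 ± 0.19 (limma adjusted p = 0.133). With replicates 3 and 4 left out Psme3, Psmd7, Psmd12 and Psmd13 were called lower at 12 h. That fit called 6 of the 41 proteasome genes lower at 12 h, and 14.8% of all genes, against 4.56% of all genes with every array. Psme1, a subunit of the interferon-inducible activator, differed by 0.08 and 0.17 at 12 h and 24 h, Psme4, the activator PA200, by 0.15 and 0.12, and the inhibitor Psmf1 by -0.03 and 0.04. The other probe sets of Psme4 differed by -0.05 and -0.11 at 24 h.

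The 2 genes that the naming rule takes in without being subunits changed in opposite directions. Psmc3ip encodes Hop2, a partner of the recombinases that repair DNA breaks. It lay at 3.03, 3.09, 3.08, 3.18 and 3.44 in undifferentiated cells, 1.40, 2.07, 2.60, 2.67 and 1.67 at 12 h, and 1.44, 2.26, 2.27, 1.82 and 1.46 at 24 h. Neither later group reached the undifferentiated range, and it fell by 1.08 at 12 h (limma adjusted p = 0.0167, and 0.0525 without 12 h replicate 5) and by 1.32 at 24 h (adjusted p = 0.00112). Psme3ip1, a protein that binds PA28 gamma, lay between 4.44 and 4.81 in undifferentiated cells and between 4.86 and 5.20 at 24 h, and rose by 0.42 ± 0.10 (adjusted p = 0.00659). Without these 2 genes 39 were tested, with 0 higher and 1 lower at 12 h and 1 higher and 6 lower at 24 h.

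The core and the regulatory particle were set side by side in each array, as the mean difference of their genes from the undifferentiated mean. At 24 h the regulatory particle was at -0.25, -0.18, -0.25, -0.12 and -0.004 in replicates 1 to 5 and the core at -0.23, -0.19, -0.29, 0.32 and 0.08. The regulatory particle was thus below the undifferentiated mean in all 24 h arrays, and the core was above it in 2 of 5. These 2, replicates 4 and 5, were the 24 h arrays of suffix C. In undifferentiated cells the core was at 0.17 in replicate 5, of suffix C, and at 0.29 in replicate 1, of suffix A. The part of the suffix in these means was not tested. The core minus the regulatory particle was 0.10 ± 0.20 (SD, n = 5) at 24 h and -0.02 ± 0.10 at 12 h, against an SD of 0.20 in undifferentiated cells, so the difference of the group means was smaller than the spread between arrays. Within the 4 runs that hold all groups, the 24 h array minus the undifferentiated one gave 0.09, 0.15, 0.10 and 0.03, above 0 in each (mean 0.09 ± 0.05, SD over 4 runs), and the 12 h arrays gave values above 0 in 2 of 4. No test was run on these means, since the genes were chosen with results of these data known.

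At 12 h replicate 1 was the lowest array for both, at -0.40 for the core and -0.47 for the regulatory particle, and the other 4 arrays were between -0.16 and 0.05. Without it the 12 h medians were -0.05 for the core and -0.04 for the regulatory particle. Within the suffixes the median of the regulatory particle genes at 24 h was -0.22, -0.24 and -0.15 in A, B and C, and that of the core genes was -0.23, -0.09 and 0.01. At 12 h the medians were -0.26, 0.06 and -0.21 for the regulatory particle and -0.21, 0.10 and -0.16 for the core, so suffix B differed in sign from A and C.

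**Figure D4:**
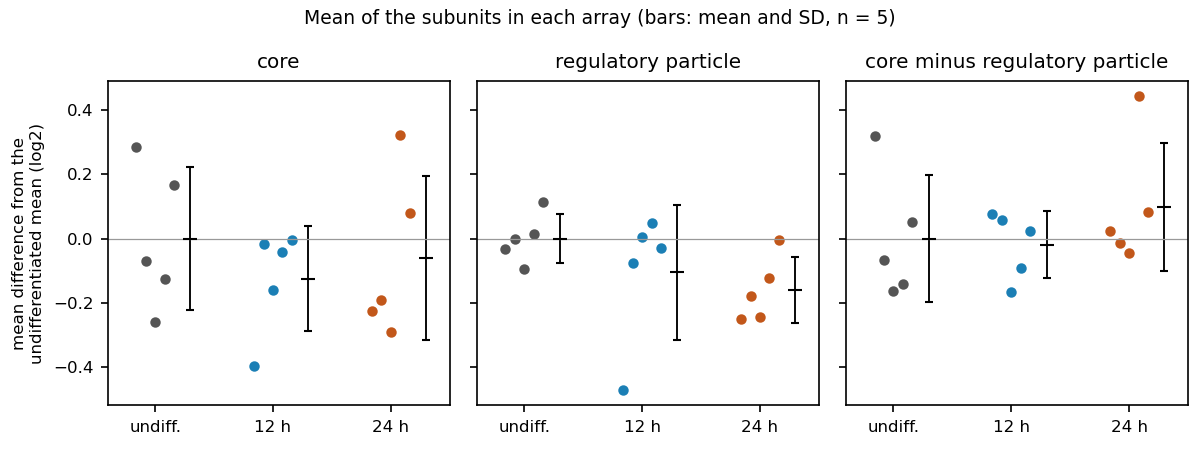
Mean log2 difference from the undifferentiated mean over the 14 core genes (left), the 17 regulatory particle genes (middle) and the core minus the regulatory particle (right) in each array, replicates 1 to 5 from left to right; bars are the mean and SD of 5 arrays. The 24 h arrays lie between -0.29 and 0.32 for the core and between -0.25 and -0.004 for the regulatory particle, and 12 h replicate 1 is the lowest array in both.

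Of 10 ubiquitin receptors, deubiquitinases and ligases that bind the proteasome, 1 was called lower at 12 h (10%, against 4.56% of all genes). At 24 h 1 was called higher (10%) and 4 lower (40%), where 12.7% of all genes were called higher and 19.4% lower. Uchl5, a deubiquitinase of the regulatory particle, lay between 4.41 and 5.10 in undifferentiated cells and between 3.33 and 3.84 at 24 h. It fell by 0.83 at 12 h (limma adjusted p = 0.0229) and by 1.15 at 24 h (adjusted p = 0.000851), with no overlap at 24 h. The deubiquitinase Usp14 (-0.71, adjusted p = 0.0306), the ligase Ube3c (-0.51, adjusted p = 0.0494) and the thioredoxin-like Txnl1 (-0.40, adjusted p = 0.0283) were lower at 24 h, and the proteasome-binding zinc finger protein Zfand5 was higher (0.65, adjusted p = 0.038). The receptor Adrm1 was not analysed here.

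Of 11 genes for p97 and its cofactors, which extract substrates for the proteasome, 0 were called at 12 h. At 24 h 1 was called higher and 1 lower (9.09% each, against 12.7% and 19.4% of all genes). These were Derl1 (0.42, limma adjusted p = 0.0297) and Derl2 (-0.43, adjusted p = 0.0364), channel proteins of the endoplasmic reticulum, and p97 itself, Vcp, differed by 0.35 (adjusted p = 0.149). The rise of Derl1 was seen on the probe set used, and the mean of its probe sets gave -0.04.

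Nfe2l1, the gene of Nrf1, was lower at 24 h. It lay between 3.71 and 4.37 in undifferentiated cells, between 3.54 and 4.31 at 12 h and between 3.02 and 3.70 at 24 h, where no array reached the undifferentiated range. The difference was -0.07 at 12 h and -0.60 ± 0.18 at 24 h (limma adjusted p = 0.0173). Of the 8 regulators of the Nrf1 and Nrf2 pathway, 0 were called at 12 h, and 0 higher and 2 lower at 24 h. These 2 were 25% of the list, against 19.4% of all genes called lower. The second was the small Maf partner Mafg (-0.81, limma adjusted p = 0.0176, and 0.26 with the actin ratio as a covariate). Nfe2l2, the gene of Nrf2, differed by 0.22 and -0.06 and was not called. Of 10 target genes of Nrf2, 0 were called at 12 h, and 0 higher and 2 lower at 24 h. These 2 were 20% of the list, near the 19.4% of all genes called lower. Glutathione reductase, Gsr, fell by 1.46 (limma adjusted p = 0.000498) and sulfiredoxin, Srxn1, by 0.58 (limma adjusted p = 0.0442).

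Genes of antigen presentation and the interferon response, the setting in which Psmb8, Psmb9 and Psmb10 are induced, gave mixed calls. Of 10 tested, 1 was called higher at 12 h (10%, against 3.30% of all genes). At 24 h 1 was called higher (10%) and 3 lower (30%), against 12.7% and 19.4% of all genes. The peptide transporter Tap1 (-0.46, limma adjusted p = 0.0246), the class I gene H2-K1 (-0.62, adjusted p = 0.0482) and Ifitm3 (-1.33, adjusted p = 0.0199) were lower at 24 h. Ifit3 was higher at 12 h (0.68, adjusted p = 0.0498) and 24 h (0.84, adjusted p = 0.00575), from a mean of 0.09 in undifferentiated cells that is itself below the filter. Among the stem cell markers, Sox2, Msi1, Prom1 and Gfap were called higher and Nes and Egfr lower at 24 h, 4 and 2 of 11. That is 36.4% and 18.2%, against 12.7% and 19.4% of all genes.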

How the data were processed

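Total RNA was hybridised to Affymetrix mouse arrays of 22690 probe sets, 1 array per sample. The deposited table holds log10 values, read as such from the hybridisation spike-ins (slope 1.07 ± 0.0655 per log10 unit of concentration, SD over 15 arrays). The submitters' processing notes name MAS5; how it was run is not given in the sources used here. Multiplication by 3.32 turned them into log2 values, with no further normalisation and no pseudocount. Symbols came from the platform annotation: of 22626 probe sets other than controls, the 20380 with 1 symbol were used (691 had several, 1555 none).

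Genes whose mean exceeded the 40th percentile of these probe sets entered 1 limma fit (3.58.1, in R 4.3.3) on group means, with trended eBayes variances; p-values were adjusted by Benjamini-Hochberg. Errors marked SE, and 95% intervals, are those of the fit, and ± after a difference is its SE. The fit was tested on simulated data. The number of arrays limits the precision.

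The proteasome genes and the pathway lists were chosen with earlier results of these data known, so lists are described by counts and medians and have no test. By the rule for named genes, array values are given for catalytic subunits, up to 3 called genes per class by smallest p and, in classes without a call, the gene with the largest difference; activators and the inhibitor are given by their difference, and pathway genes where called, up to 4 per list, with Nfe2l1, Nfe2l2 and Pomp whatever their result. Psma3, Psma6, Psmb1 to Psmb4, Psmc1, Psmc2, Psmc4, Psmc6, Psmd3, Psmd5, Psmd10, Psmd11 and Psmg2 were named after their values were seen. Alternatives changed the normalisation, pseudocount, filter, probe set, variance model, samples, labels, block and covariate. Scaling to a trimmed mean (2%), and leaving out 12 h replicates 3 and 4, were chosen after seeing the data.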

Additional observations from a re-analysis of the deposited data

Results flagged for a closer look

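The values of 16 of the genes above and of the 2 particle means form 54 groups of 5. In 4 of these groups a single value stood apart from the others by a gap over 0.71 of the group's range. Chance gives about 1 in 20 for a single group. The groups share arrays, so the 4 flags are not independent. At 12 h, replicate 1 was low for Psmb5, at 6.33 against 6.73 to 6.82 in the others, and for the mean difference of the regulatory particle genes, at -0.47 against -0.08 to 0.05. The same array was high for Psmb9, at 1.10 against 0.17 to 0.42. At 24 h, replicate 4 was low for Psmd7, at 3.90 against 4.29 to 4.44. Without that array Psmd7 was still called lower. The share of any cause in these values was not tested.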

How the results depend on the processing

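Of the 84 results on named genes, 37 were called, and each of the 37 lost its call under at least 1 of 17 alternatives. The file codes were among these and gave 0 calls over all genes, so that loss was fixed in advance. When some single array was left out, 22 of the 37 lost their call. Over 2682 combinations of result and setting the call, or its absence, was unchanged in 2344. It was lost in 271 and gained in 54, and the sign of a called result turned in 13. Among the 2344 were 74 sign changes of results called under neither setting.

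The count of genes called lower at 12 h (2) was 1 with quantile normalisation, median centring, trimmed mean scaling or no filter. It was also 1 with the mean of all probe sets, only the 2 groups compared, or 12 h replicates 3 and 4 averaged. It was 0 under the file codes, without suffix C or with the actin ratio as covariate, and 6 with these replicates left out. Over all genes limma called 14.8% lower at 12 h with these replicates left out, 0.443% without suffix C and 0.228% with the actin ratio. The count higher at 24 h (2) was 1 with median centring, the mean of all probe sets, runs as a fixed block or no suffix C, and 0 under the file codes or with the actin ratio. The count lower at 24 h (7) was 2 with median centring or no suffix C, and 11 with runs as a random block. It was 0 under the file codes or with the actin ratio, where an unadjusted limma p under 0.05 gave 0 and 4, respectively. Over all genes limma called 14% lower with median centring, 7.74% without suffix C, 25% with the random block and 0.0632% with the actin ratio. The median of the regulatory particle genes at 24 h (-0.19) was -0.0463 with median centring, 0.11 under the file codes and -0.37 with the actin ratio, and at 12 h (-0.10) it was -0.26 within suffix A, 0.0558 within suffix B and 0.14 under the file codes. The median of the core genes at 12 h (-0.11) was 0.17 under the file codes.

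With single arrays left out, the counts were 0 to 2 lower at 12 h, 1 to 2 higher and 4 to 8 lower at 24 h, and 0 to 1 lower between the times (Psmb10 without 12 h replicate 1). The medians ran from -0.17 to -0.05 (core, 12 h), -0.16 to 0.01 (core, 24 h), -0.18 to -0.04 (regulatory particle, 12 h) and -0.22 to -0.17 (24 h). The file codes turned the sign of Psmd9 at 12 h (0.0573) and of Psmc5 (0.11), Psmd7 (0.0809), Psmd12 (0.13), Psmd13 (0.0629), Usp14 (0.00815), Ube3c (0.12), Prom1 (-0.26) and Gfap (-0.0807) at 24 h, and of Ifit3 at 12 h (-0.22) and 24 h (-0.0722). The mean of all probe sets turned Derl1 at 24 h (-0.0418), and the actin ratio turned Mafg (0.26). The cause of these changes was not tested. The labels give no replicate numbers that the groups share, so no fit used such a number. The runs and suffixes of the title codes were used as blocks instead. With the suffix as a block, or the runs as a fixed block, 10 of the 41 genes were called lower at 24 h. Of all genes, 23.7% and 23.6% were called lower in these fits, against 19.4% without a block.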

Other observations

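Probe sets of the same gene did not always move together. Of the 44 proteasome genes 20 had several probe sets and 18 had several above the filter, and in 8 of the 18 the probe sets had differences of opposite sign at 12 h, as they had in 8 at 24 h. Psme3 and Psmd13 had further probe sets above the filter with a difference on the same side as the one used. The values of Psmb3, Psmd7 and Psmd11 depended on the choice, as given above. Over probe sets above the filter, the sign at 24 h also depended on it for Psma6 (-0.03, -0.04 and 0.13) and Psmc2 (0.01 and -0.17). The same held for Psmc6 (-0.19, -0.29 and 0.10) and Psme4 (0.12, -0.05 and -0.11). For the inhibitor Psmf1 the 4 probe sets differed by 0.04, -0.27, 0.04 and 0.16 at 24 h, and for the ubiquitin receptor Psmd4 the 3 probe sets differed by 0.14, -0.07 and -0.08.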
